A study of Rattus norvegicus with 6 samples.

Results

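Notch signalling genes were followed in rat (Rattus norvegicus) libraries labelled as primary cultured microglia, through 10 genes chosen by name: the receptor genes Notch1, Notch2 and Notch3, the ligand genes Dll1, Dll3, Jag1 and Jag2, and the target genes Hes1, Hes5 and Hey1. The count table held 9 of the 10 among its 16876 gene symbols, and all 9 passed the filter on low counts that left 11679 tested genes. Jag2 was not analysed here. RNA had been taken after 24 h of exposure, in 3 libraries to PSNPs (polystyrene nanoplastics) and in 3 to the near-infrared dye IR-813. All 6 cultures were of cells shaken loose from mixed co-cultures grown in serum-containing medium. The labels give no animal age, sex, dose or batch, and no untreated library was analysed here, so "higher" and "lower" mean with PSNPs against IR-813, and the data do not say which of the treatments changed a gene. The deposited tables name the IR-813 columns con, and the sample titles were followed. Nothing in the labels says that replicates came from separate cultures, so p-values measure the spread between these libraries, which may be technical.

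Notch receptors are single-pass membrane proteins that are bound by Delta-like and Jagged ligands on a neighbouring cell. Binding lets ADAM proteases and then gamma-secretase cut the receptor, and the freed intracellular domain joins the DNA-binding protein RBPJ to switch on HES and HEY genes, which encode bHLH repressors. In the brain the pathway is known for keeping neural progenitors and glial precursors from differentiating, for astrocyte formation and for the smooth muscle and pericytes of vessels.

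Of the 9 measured genes, Jag1, Notch3 and Hey1 were higher with PSNPs, Dll3, Hes5 and Hes1 were lower, and Notch1, Notch2 and Dll1 did not pass the test. By role, 1 of 3 receptors was higher, 1 of 3 ligands was higher and 1 lower, and 1 of 3 targets was higher and 2 were lower. These 6 calls are by edgeR's quasi-likelihood test at a Benjamini-Hochberg adjusted p under 0.05 over all tested genes. Among them, Hes5 passed the filter on low counts through its IR-813 libraries alone. In the same fit 41.0% of all tested genes were called, 20.9% higher and 20.1% lower. For 61.4% of all tested genes the CPM values of the groups did not overlap, which is the share to set beside each separation of a member below. The members' median log2 fold change was −0.27, beside −0.01 over all tested genes. With scaling by library size alone 40.5% of all calls were higher, in place of 50.9%, and Notch3 was no longer called.

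Total counts ranged from 19166605 to 22553507 per library. PSNPs replicate 3 stood apart from the other libraries. Among the 25% of tested genes with the largest length proxy, the gene factor that links the deposited log2 values to the counts, its median deviation from the mean of the 6 libraries was −0.42 on the log2 scale, and among the 25% with the smallest it was 0.32. For long genes the IR-813 libraries lay between 0.12 and 0.15, and PSNPs replicates 1 and 2 at 0.0082 and 0.035. For short genes the IR-813 libraries lay between −0.11 and −0.081, and PSNPs replicates 1 and 2 at 0.035 and 0.012. The trend with length thus differed between the treatments even without PSNPs replicate 3. Across genes, log CPM of PSNPs replicates 1 and 2 correlated at 0.995, and that of replicate 3 with them at 0.974 or less. The receptor genes lie near the top of the length proxy (Notch1 at percentile 99.2, Notch2 at 99.6 and Notch3 at 97.8 of tested genes), and Jag1 lies at 94.0, so each receptor and Jag1 is given with and without that library. Hes5, Hey1 and Hes1 lie at percentiles 2.15, 7.11 and 22.1, Dll3 at 42.8 and Dll1 at 71.7.

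Transcripts of several cell types were present in the libraries. Each count of called markers below is to be set beside 20.9% higher and 20.1% lower over all tested genes. The astrocyte gene Gfap stood between 2473 and 3662 CPM and the microglia gene Aif1 between 16.1 and 62.4 CPM. The summed level of 8 microglia markers was 786 to 1038 CPM with IR-813 and 465 to 600.2 CPM with PSNPs, with 7 of the 8 lower. The 12 astrocyte markers summed to 6833 to 8719 and 8043 to 8872 CPM, with 5 higher and 2 lower of 11 tested. The markers of neural progenitors and radial glia (6 of 7 in the table) summed to 7900 to 8126 and 12027 to 14205 CPM, with 4 higher and 0 lower. Most of the rise in this sum was Vim, at 5121 to 5355 CPM with IR-813 and 8657 to 10610 CPM with PSNPs. Nes and Pax6 were not called (edgeR adjusted p 0.837 and 0.516). These 3 genes were named here after their values were seen. Markers of oligodendrocyte progenitors (7 of 8 in the table) went from 2333 to 2701 CPM down to 1615 to 1833 CPM, with 6 lower and 1 higher. The 8 oligodendrocyte markers summed to 5230 to 6072 and 2989.85 to 3467 CPM, with 8 lower of 8 tested. The 12 neuron markers summed to 520 to 541 and 172 to 213 CPM, with 8 lower of 10 tested. The 10 markers of pericytes, smooth muscle and fibroblasts summed to 127 to 179 and 63.4 to 83.0 CPM, with 2 higher and 3 lower of 6 tested and Col1a2 at 0 in every library. The 7 endothelial markers summed to 10.2 to 11.2 and 19.4 to 28.6 CPM, with 1 higher (Flt1) and 1 lower (Pecam1) of 5 tested. Flt1, named after its values were seen, made up most of the PSNPs sum, at 15.8 to 24.6 CPM against 4.05 to 4.56 CPM with IR-813. The 5 markers of ependymal and choroid plexus cells summed to 60.2 to 72.8 and 81.1 to 98.0 CPM, with 1 higher and 0 lower of 3 tested. In bulk libraries fewer cells of a type and less RNA per cell cannot be told apart, and the part of these cell types in the Notch results was not tested.

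**Figure D1:**
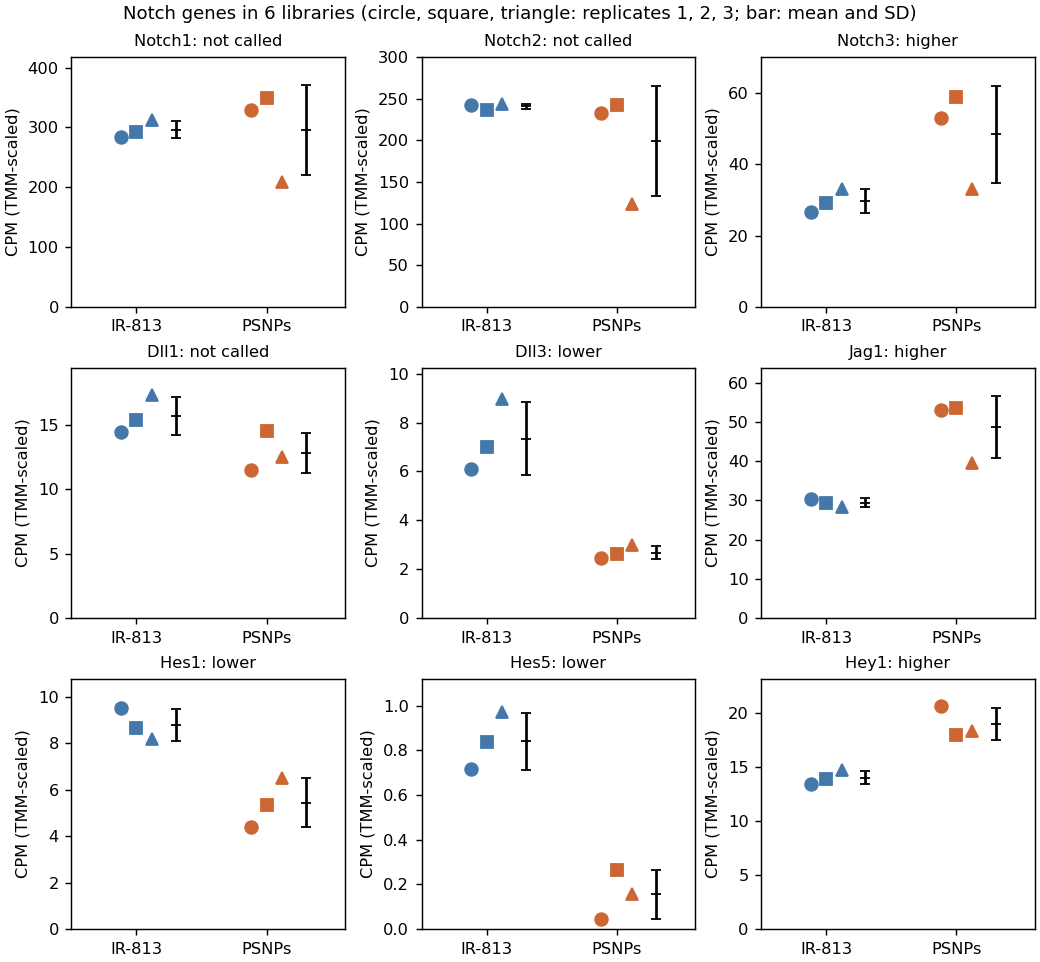
Level of each Notch gene (vertical axis, CPM on TMM-scaled library sizes, from 0) in the 3 IR-813 and the 3 PSNPs libraries; each symbol is a library and the bar gives mean and SD. The PSNPs triangle (replicate 3) lies below the other PSNPs libraries for Notch1, Notch2, Notch3 and Jag1, and the groups are apart for Dll3, Jag1, Hes1, Hes5 and Hey1. Over all tested genes 61.4% were apart in the same way.

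Among the receptors, Notch3 was the one that passed the test. Notch3, the receptor best known from vascular smooth muscle and pericytes, stood at 26.6, 29.1 and 33.2 CPM in IR-813 replicates 1 to 3 and at 53.1, 58.9 and 33.1 CPM in PSNPs replicates 1 to 3. PSNPs replicates 1 and 2 lay above all IR-813 libraries, whereas replicate 3 lay just under the highest of them, so the groups overlap. The fitted log2 fold change was 0.71 ± 0.22 (estimate ± SE, n = 3 each), a 1.63-fold difference, with an edgeR adjusted p of 0.0366. Without PSNPs replicate 3 it was 0.92 ± 0.10 (edgeR adjusted p 0.000206), in a fit with 3591 of 11798 tested genes called higher. The call was lost when any other library was left out: the edgeR adjusted p was 0.126, 0.112 and 0.0693 without IR-813 replicate 1, 2 or 3 and 0.0974 and 0.0912 without PSNPs replicate 1 or 2. It was 0.0540 with library size only, and over the 14 alternatives it spanned 0.000206 to 0.126. The tested markers of pericytes, smooth muscle and fibroblasts did not move one way. Pdgfrb and Acta2 were lower with PSNPs, from between 42.3 and 48.1 to between 26.2 and 34.3 CPM for Pdgfrb and from between 22.2 and 37.7 to between 2.02 and 2.57 CPM for Acta2. The smooth muscle myosin gene Myh11 was higher, from 4.15 to 4.47 up to 5.27 to 11.5 CPM, as was Kcnj8, from 0.186 to 0.403 up to 0.743 to 1.98 CPM. Myh11 and Kcnj8 were named after their values were seen, and the part of these cells in the level of Notch3 was not tested.

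Notch1, the most abundant of the receptors, stood at 284, 293 and 312 CPM with IR-813 and at 329, 349 and 209 CPM with PSNPs. The first 2 PSNPs libraries lay above the IR-813 libraries and the third lay below them. The log2 fold change was −0.0023 ± 0.19, with an edgeR adjusted p of 0.993. Without PSNPs replicate 3, where 3591 of 11798 tested genes were called higher, it was 0.20 ± 0.06 (edgeR adjusted p 0.0184). With all libraries 2439 of 11679 were called higher. Leaving out this library thus turned the estimate for Notch1 into a called rise. With a length offset, a correction for the trend of each library with the length proxy that was chosen after seeing the data, it was 0.39 ± 0.09 (adjusted p 0.00944, where the 14 alternatives spanned 0.00944 to 0.996). Notch2 stood at 243, 237 and 243 CPM with IR-813 and at 233, 243 and 123 CPM with PSNPs, so that replicates 1 and 2 lay in or near the IR-813 range. Its log2 fold change was −0.27 ± 0.24 (adjusted p 0.388) and −0.02 ± 0.04 without PSNPs replicate 3 (adjusted p 0.741). With the length offset it was 0.12 ± 0.05 (adjusted p 0.107, the lowest of 14 alternatives, with 0.741 the highest).

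**Figure D2:**
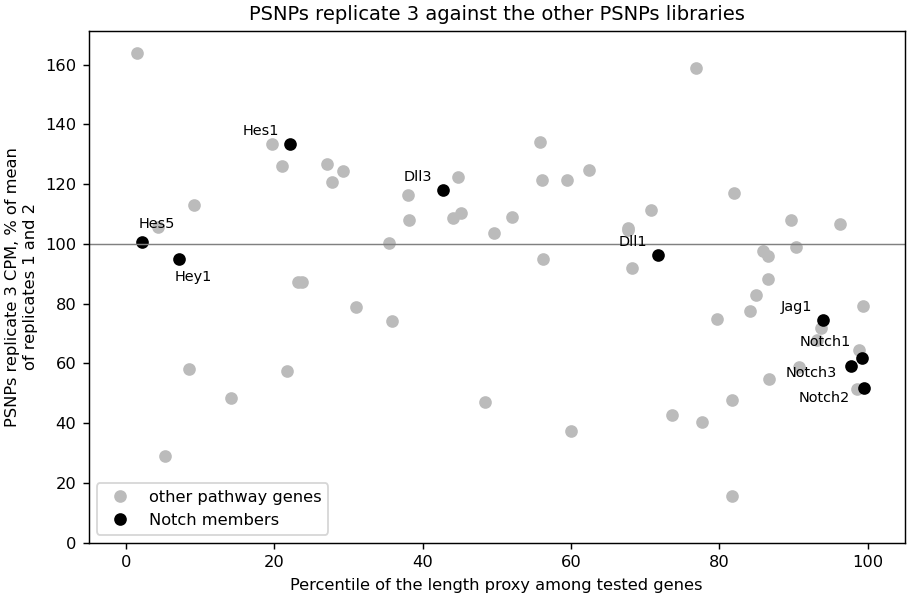
Level in PSNPs replicate 3 as a percentage of the mean of PSNPs replicates 1 and 2 (vertical axis) against the percentile of the length proxy (horizontal axis), for the 9 Notch genes (black) and the other tested pathway genes (grey). The 3 receptors lie between 51.9% and 61.7% and Jag1 at 74.5%, while Hes5, Hey1, Dll1, Dll3 and Hes1 lie between 94.8% and 133%.

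Ratios of counts inside a library carry no scaling factor, and the receptors are all long, so Notch3 and Notch2 were also set against Notch1; these ratios were chosen after the values were seen. There were 9.35, 9.92 and 10.6 Notch3 reads per 100 Notch1 reads in the IR-813 libraries and 16.1, 16.9 and 15.8 in the PSNPs libraries. PSNPs replicate 3 lay with the other PSNPs libraries on this measure, and the groups did not overlap. The mean was 9.97 ± 0.646 with IR-813 and 16.3 ± 0.544 with PSNPs (SD, n = 3 each), with a 2-sided exact permutation p of 0.1, the smallest that 3 against 3 libraries can give. There were 85.4, 81.0 and 78.0 Notch2 reads per 100 Notch1 reads with IR-813 and 70.8, 69.5 and 59.0 with PSNPs, again without overlap and with an exact permutation p of 0.1. Here PSNPs replicate 3 stood below the other PSNPs libraries. The PSNPs mean over the IR-813 mean was 0.815 with it and 0.861 without it. Among reads of the receptors, the share of Notch3 was thus larger and that of Notch2 smaller relative to Notch1 in every PSNPs library. Over all tested genes 61.4% had CPM values that did not overlap between the groups. That share is for single genes, and none was computed for ratios of gene pairs. As both ratios were picked from seen values, their permutation p-values are a description and no independent test.

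**Figure D3:**
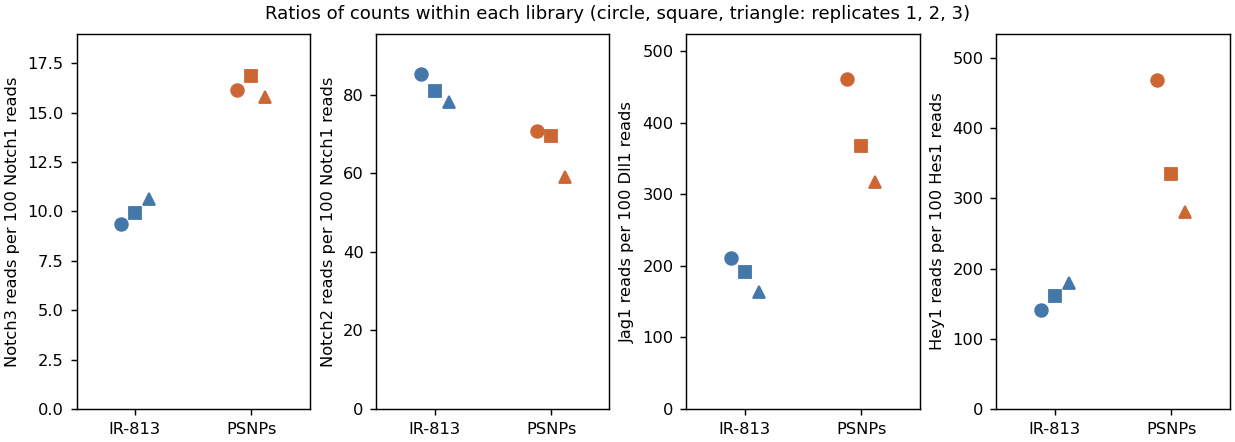
Ratios of counts within each library (vertical axes, reads per 100 reads of the second gene, from 0) for 4 pairs of Notch genes in the IR-813 and PSNPs libraries; each symbol is a library. In all 4 pairs, which were chosen after the values were seen, the IR-813 and the PSNPs libraries do not overlap. The Notch3 to Notch1 ratio of PSNPs replicate 3 is 15.8, beside 16.1 and 16.9 in the other PSNPs libraries.

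Of the ligands, Jag1 rose and Dll3 fell. Jag1, which encodes a Jagged ligand, stood at 30.5, 29.4 and 28.3 CPM with IR-813 and at 53.0, 53.4 and 39.7 CPM with PSNPs. Every PSNPs library lay above every IR-813 library, and replicate 3 was the lowest of the PSNPs libraries. The log2 fold change was 0.73 ± 0.13, a 1.66-fold rise, with an edgeR adjusted p of 0.00565. It was 0.86 ± 0.06 without PSNPs replicate 3, and the call held under all 14 alternatives (adjusted p from 1.69e-05 to 0.0305).

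Dll3 encodes a divergent Delta-like protein that is known to act on Notch inside its own cell rather than as a ligand for neighbours, and it is a gene of neuronal and oligodendrocyte precursors. It stood at 6.09, 6.99 and 8.97 CPM with IR-813 and at 2.44, 2.60 and 2.97 CPM with PSNPs. The highest PSNPs library reached less than any IR-813 library. The log2 fold change was −1.46 ± 0.19, a 2.75-fold lower level, with an edgeR adjusted p of 0.00154, and the call held under all 14 alternatives (log2 fold change from −1.58 to −1.01). Of the 7 tested markers of oligodendrocyte progenitors, 6 were also lower, beside 20.1% of all tested genes. Among these, Pdgfra went from between 238 and 289 to between 58.2 and 92.8 CPM, and Sox10 from between 159 and 193 to between 43.6 and 56.0 CPM. The exception was Olig1, which was higher, at 726 to 813 CPM with IR-813 and 1015 to 1237 CPM with PSNPs (edgeR adjusted p 0.00821), named after its values were seen. Their part in the level of Dll3 was not tested.

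Dll1, a canonical Delta-like ligand, did not pass. It stood at 14.5, 15.4 and 17.3 CPM with IR-813 and at 11.5, 14.5 and 12.5 CPM with PSNPs, and PSNPs replicate 2 lay just above the lowest IR-813 library. Its log2 fold change was −0.29 ± 0.14 (edgeR adjusted p 0.125), and it did not pass under any of the 14 alternatives. Set against Dll1 in the same library, Jag1 had 211, 192 and 163 reads per 100 Dll1 reads with IR-813 and 461, 368 and 317 with PSNPs. Dll3 had 42.1, 45.5 and 51.7 reads per 100 Dll1 reads with IR-813 and 21.2, 17.9 and 23.8 with PSNPs. Relative to Dll1, therefore, Jag1 was higher and Dll3 lower in each PSNPs library, with an exact permutation p of 0.1 for each ratio. Both ratios were chosen after the values were seen. Jag1 and Dll3 had each separated the groups in CPM, so these p-values are a description and no independent test.

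Among the targets, Hes1 and Hes5 fell while Hey1 rose. Promoters are shown because Hes1 and Hes5, textbook direct targets of the RBPJ complex, moved together, a reason taken from these same values. Nrarp, also a direct Notch target, was not called (log2 fold change −0.03). RefSeq sequences (build GRCr8, while the files name mRatBN7.2) were found for 8 of the 9 measured genes, with none for Hey1. The letters GTGGGAA, the core of the RBPJ site, were searched on both strands in the 300 bases from 250 before to 50 after each start. They were present in 3 of the 8 promoters, those of Hes1, Hes5 and Dll1, and in 6.29% of the 33469 promoters in the table. Hes5 held 2 matches, and 0.236% of all promoters held that many or more. The 250 bases before the start are printed 5′ to 3′ on the gene's strand with matches, on either strand, in capitals (Hes1 at chr11:84213046-84213295, minus strand; Hes5 at chr5:170804327-170804576, plus strand; Dll1 at chr1:64993275-64993524, minus strand).
Hes1: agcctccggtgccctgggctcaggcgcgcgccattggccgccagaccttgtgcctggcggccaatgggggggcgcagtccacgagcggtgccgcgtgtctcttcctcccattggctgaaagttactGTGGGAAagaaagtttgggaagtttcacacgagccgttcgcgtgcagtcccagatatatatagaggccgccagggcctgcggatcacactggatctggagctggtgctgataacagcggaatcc
Hes5: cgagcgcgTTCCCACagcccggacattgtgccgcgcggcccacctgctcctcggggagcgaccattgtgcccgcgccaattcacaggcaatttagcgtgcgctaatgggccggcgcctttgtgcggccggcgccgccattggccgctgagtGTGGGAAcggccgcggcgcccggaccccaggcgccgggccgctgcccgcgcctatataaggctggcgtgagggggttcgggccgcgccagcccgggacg
Dll1: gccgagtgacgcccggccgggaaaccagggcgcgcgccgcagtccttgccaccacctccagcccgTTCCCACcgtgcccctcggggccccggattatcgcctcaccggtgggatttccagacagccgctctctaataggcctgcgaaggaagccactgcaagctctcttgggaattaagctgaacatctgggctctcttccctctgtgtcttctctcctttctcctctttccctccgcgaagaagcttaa
Counting back from −1 at the last base before the start, the match in Hes1 began at −124, those in Hes5 at −242 and −99, and that in Dll1 at −185. Of the 3 genes, Hes1 and Hes5 were called lower and Dll1 was not called. The N-box CACNAG, a sequence bound by HES repressors, was found on either strand 4 times in the Hes1 promoter, 4 times in that of Notch1, where 2 of the matches overlap each other, and in 1 place in that of Notch3. It occurred in 43.1% of all promoters. The E-box CACGTG was found in 0 of the 8 promoters and in 6.42% of all. A match is a run of letters, and binding was not measured.

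Hes1, the widely used HES target, stood at 9.53, 8.66 and 8.19 CPM with IR-813 and at 4.41, 5.36 and 6.52 CPM with PSNPs. All PSNPs libraries lay below all IR-813 libraries. The log2 fold change was −0.70 ± 0.17, a 1.62-fold lower level, with an edgeR adjusted p of 0.0170. Without IR-813 replicate 1 or 2 the adjusted p was 0.0708 and 0.0614, and over the 14 alternatives it spanned 0.00160 to 0.0708. PSNPs replicate 3, low for the receptors, was the highest of the PSNPs libraries for Hes1, at 133% of the mean of replicates 1 and 2, and without it the log2 fold change was −0.85.

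Hes5, a target that marks neural stem cells and astrocyte precursors, was near the limit of detection. It had 16, 18 and 21 counts with IR-813 and 1, 5 and 3 counts with PSNPs. These are 0.716, 0.838 and 0.971 CPM against 0.0460, 0.265 and 0.157 CPM, without overlap. Summed over libraries, 9 counts with PSNPs stood against 55 with IR-813, a ratio of 0.179 with a 95% exact binomial interval from 0.0778 to 0.365, which covers counting error only. The fitted log2 fold change was −2.43 ± 0.45, with an edgeR adjusted p of 0.00596. Hes5 passed the filter on low counts through its IR-813 libraries alone. The direction of its call is thus tied to the filter, and the call is a description. Leaving out PSNPs replicate 2 gave −3.02. The deposited log2 values gave −1.13, since their pseudocount of 1 shrinks differences at low levels, and the call held under the 13 alternatives that kept the gene.

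Hey1, a HEY-family target, went the other way. It stood at 13.5, 13.9 and 14.7 CPM with IR-813 and at 20.7, 17.9 and 18.3 CPM with PSNPs, so that each PSNPs library exceeded each IR-813 library. The log2 fold change was 0.44 ± 0.11, a 1.35-fold rise, with an edgeR adjusted p of 0.0179. The edgeR adjusted p was 0.269 with the length offset, 0.0803 and 0.0833 without IR-813 replicate 1 or 2, and 0.0636 without PSNPs replicate 1, and over the 14 alternatives it spanned 0.00401 to 0.269. With the length offset the log2 fold change was 0.19 ± 0.13. Per 100 Hes1 reads there were 141, 161 and 180 Hey1 reads in the IR-813 libraries and 469, 335 and 281 in the PSNPs libraries. The mean of this ratio was 161 ± 19.2 with IR-813 and 361 ± 96.8 with PSNPs, without overlap and with an exact permutation p of 0.1. The ratio was chosen after the values were seen. Hey1 was higher and Hes1 lower in every PSNPs library, so the ratio had to separate the groups. Its p was thereby fixed and adds no further test. The size of this ratio does not depend on library scaling.

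**Figure D4:**
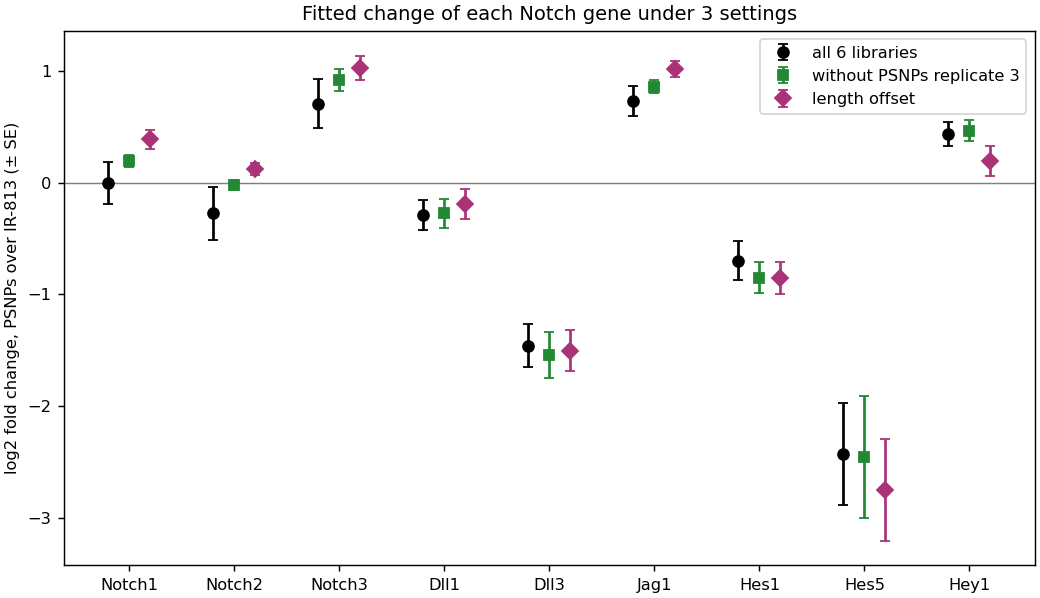
Fitted log2 fold change of PSNPs over IR-813 (vertical axis, ± SE) for the 9 Notch genes with all 6 libraries, without PSNPs replicate 3 and with the length offset. Dll3, Hes1 and Hes5 lie below 0 and Notch3, Jag1 and Hey1 above 0 in all 3 settings, while Notch1 moves from −0.0023 to 0.20 and 0.39.

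Levels were compared between genes on the deposited log2 scale, which divides counts by a factor per gene and is read here as a level per length. With IR-813, Notch1 was highest at 4.98 ± 0.0633, followed by Notch2 at 4.51 ± 0.0193 and Hey1 at 4.31 ± 0.0619. Hes1 came next at 2.97 ± 0.0969, then Jag1 at 2.63 ± 0.0475 and Dll1 at 2.61 ± 0.110, which overlapped each other. Notch3 at 2.31 ± 0.126 and Dll3 at 2.29 ± 0.225 also overlapped, and Hes5 was lowest at 1.57 ± 0.148. With PSNPs the order was Notch1 (4.96 ± 0.366), Hey1 (4.74 ± 0.0976), Notch2 (4.20 ± 0.491), Jag1 (3.26 ± 0.195), Notch3 (2.88 ± 0.358), Hes1 and Dll1 (2.38 ± 0.252 and 2.38 ± 0.139), Dll3 (1.28 ± 0.104) and Hes5 (0.437 ± 0.275). In the PSNPs order Notch1 and Hey1 overlapped, and Jag1, Notch3, Hes1 and Dll1 each overlapped the next, while Notch2, Dll3 and Hes5 overlapped neither neighbour. On this scale Hey1 stood closest to Notch1 and Notch2 and Hes5 at the bottom in both groups, so the target genes spanned nearly the whole range of the 9 genes.

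As a description, the genes whose log CPM profile over the 6 libraries was most like that of a member were found for the receptor, ligand and target with the smallest p. They were Add3, Dpyd and Arl6ip6 for Notch3 (Pearson r of 0.998, 0.994 and 0.991), Cdk2, Nrxn2 and Mycl for Dll3 (0.998, 0.997 and 0.997) and Gnb3, Trib2 and Fhl1 for Hes5 (0.998, 0.994 and 0.992). The 6 libraries fall into the 2 treatments, and of 10839 genes compared 151, 505 and 176 had r above 0.95 with Notch3, Dll3 and Hes5.

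Beyond the members, 68 genes of the pathway were listed by role, of which 60 were in the table and 57 were tested. Of these, 12 were higher and 12 lower, which is 42.1% called beside 41.0% of all tested genes, and their median log2 fold change was −0.02. The rule for naming took the 3 genes with the smallest p in each role. Of the 22 such genes that were called, 22 kept their direction and 7 their call under every alternative: Dlk2, Nov, Hes6, Mfng, Neurl1b, Ncstn and Tle1.

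Among other receptors and ligands, 1 of 6 tested was higher and 2 lower (50% called, beside 41.0% of all tested genes). Dlk2, a Delta-like protein without the domain that activates Notch, fell from 4.02 ± 0.555 to 0.686 ± 0.0585 CPM, by 2.54 ± 0.20 on the log2 scale (edgeR adjusted p 0.000213), or by 1.41 on the deposited log2 scale. Nov, a secreted matricellular protein reported to bind Notch, rose from 2.97 ± 0.420 to 6.35 ± 0.602 CPM. Cntn1, an axonal adhesion molecule also described as a Notch ligand, fell from 111 ± 8.09 to 55.3 ± 22.9 CPM. The call of Cntn1 was lost without IR-813 replicate 1, 2 or 3 (adjusted p 0.0844, 0.0862 and 0.104) or PSNPs replicate 1 (0.0563), and its adjusted p spanned 0.000263 to 0.104 over the 14 alternatives. Notch4 and Dll4, the receptor and ligand known from endothelium, stood at 2.06 ± 0.254 and 1.59 ± 0.396 CPM with IR-813 and at 2.45 ± 0.135 and 1.73 ± 0.505 CPM with PSNPs, and did not pass; both were named after their values were seen.

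Of 4 tested further HES and HEY genes, 2 were higher (50% called, beside 41.0% of all tested genes). Hes6, which encodes a HES protein known to oppose HES1 and to favour neuronal differentiation, rose from 36.0 ± 5.04 to 68.9 ± 9.57 CPM, by 0.94 ± 0.15 on the log2 scale (edgeR adjusted p 0.00288). Per 100 Hes1 reads it had 326, 412 and 502 reads with IR-813 and 1449, 1170 and 1225 with PSNPs, without overlap. That ratio was also chosen after the values were seen. It had to separate the groups, since Hes6 was higher and Hes1 lower in every PSNPs library. Hey2 rose from 11.4 ± 0.227 to 14.3 ± 1.06 CPM with an adjusted p of 0.0487, and lost the call under 10 of 14 alternatives, among them each left-out library but PSNPs replicate 3 (0.0784 to 0.170), the lowest of the 14 values being 0.0148. Heyl stood at 0.30 ± 0.18 on the log2 scale and did not pass. Hes1 and Hes5 were thus lower while Hey1, Hey2 and Hes6 were higher.

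**Figure D5:**
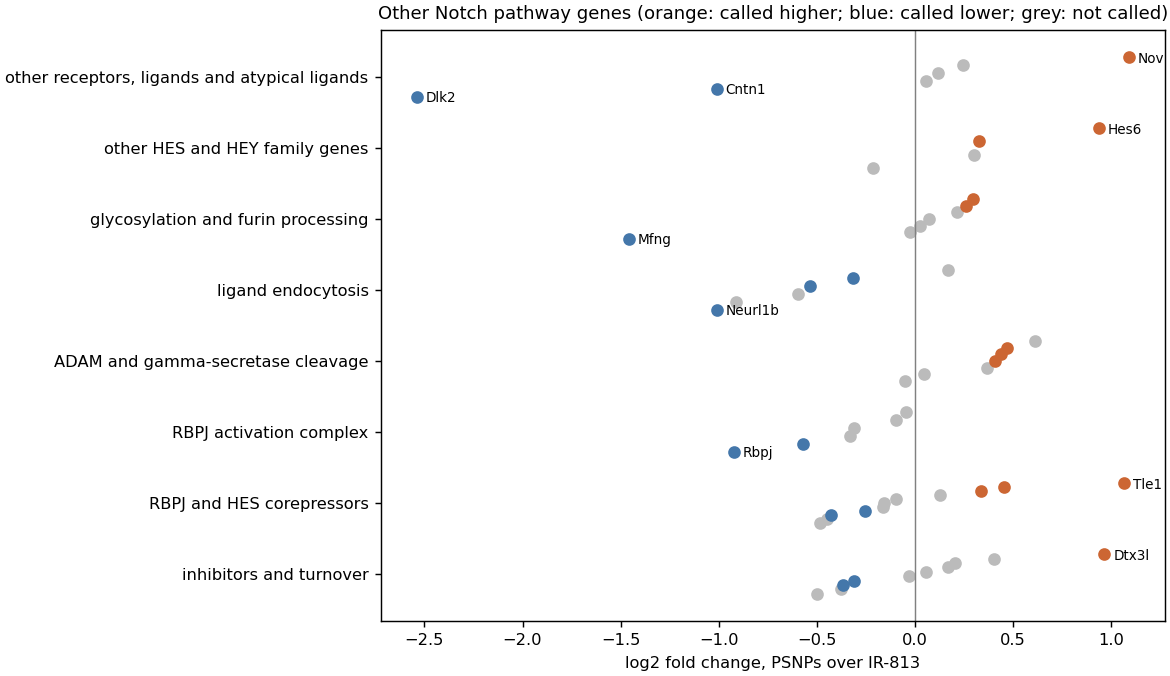
Fitted log2 fold change of PSNPs over IR-813 (horizontal axis) for the 57 other tested pathway genes by role (rows); each point is a gene, coloured by its call. Called genes lie on both sides in 4 of the 8 rows. Ligand endocytosis and the RBPJ activation complex have called genes on the lower side alone. The other HES and HEY genes and the cleavage genes have them on the higher side alone. Of the 57 genes 42.1% were called, beside 41.0% of all tested genes.

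Among genes for processing of the receptor before ligand binding, calls went in both directions. Of 7 glycosylation and furin genes 2 were higher and 1 lower (42.9% called, beside 41.0% of all tested genes). The Fringe genes, whose enzymes add a sugar to Notch and bias it between Delta and Jagged ligands, split: Mfng fell from 7.46 ± 1.33 to 2.70 ± 0.471 CPM (edgeR adjusted p 0.00189), and Lfng rose from 142 ± 10.9 to 174 ± 16.1 CPM (0.0492). The call of Lfng was lost under 10 of 14 alternatives, with an adjusted p of 0.168 and 0.174 without IR-813 replicate 1 or 2, 0.0519 with IR-813 replicate 3 left out and 0.0899 with PSNPs replicate 1 left out. Poglut1, an O-glucosyltransferase for Notch, stood at 0.26 ± 0.08 (0.0298) and lost the call without any of the libraries but PSNPs replicate 3 (0.0678 to 0.143). Over the 14 alternatives the adjusted p spanned 0.0248 to 0.174 for Lfng and 0.00106 to 0.143 for Poglut1.

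Of 7 tested protease genes, 3 were higher and 0 lower (42.9% called, beside 41.0% of all tested genes), and the median log2 fold change was 0.41. Ncstn, which encodes the gamma-secretase subunit nicastrin, rose from 184 ± 6.62 to 249 ± 8.40 CPM (edgeR adjusted p 0.00359). Psen2, an alternative catalytic subunit, rose from 26.0 ± 0.470 to 36.1 ± 4.75 CPM, and Adam17, a membrane shedding protease, from 100.1 ± 3.47 to 133 ± 15.4 CPM. The adjusted p of Psen2 was 0.0703, 0.0668 and 0.0546 without IR-813 replicate 1, 2 or 3, and that of Adam17 was 0.0767 and 0.0740 without IR-813 replicate 1 or 2 and 0.0566 without PSNPs replicate 1. These spanned 0.00175 to 0.0703 for Psen2 and 0.000322 to 0.0767 for Adam17 over the 14 alternatives.

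Of 6 ligand endocytosis genes, 3 were lower and 0 higher (50% called, beside 41.0% of all tested genes). Neurl1b, an E3 ubiquitin ligase acting on ligands, fell from 4.73 ± 0.466 to 2.33 ± 0.492 CPM (edgeR adjusted p 0.00643), and Mib2, another such ligase, from 103 ± 7.96 to 71.1 ± 6.67 CPM. Epn2, an endocytic adaptor gene, fell from 262 ± 3.07 to 211 ± 3.80 CPM. With the length offset Mib2 and Epn2 lost the call (adjusted p 0.112 and 0.480), and Epn2 did so without IR-813 replicate 2 (0.0634). The adjusted p spanned 0.000317 to 0.112 for Mib2 and 0.000781 to 0.480 for Epn2 over the 14 alternatives.

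Of 6 tested genes of the RBPJ activation complex, 2 were lower and 0 higher (33.3% called, beside 41.0% of all tested genes). Rbpj itself, the DNA-binding partner of the cut receptor, fell from 255 ± 12.2 to 134 ± 42.4 CPM, by 0.92 ± 0.23 on the log2 scale (edgeR adjusted p 0.0167). Its adjusted p was 0.0570 and 0.0577 without IR-813 replicate 1 or 2. Crebbp, a histone acetyltransferase gene, fell from 86.4 ± 3.64 to 58.2 ± 8.73 CPM, with an adjusted p of 0.00999 that became 0.621 with the length offset. Maml1, a coactivator of the complex, stood at −0.33 ± 0.14 and did not pass (0.105), and at −0.18 with an adjusted p of 0.0232 without PSNPs replicate 3. Over the 14 alternatives the adjusted p spanned 0.000172 to 0.0577 for Rbpj, 0.000425 to 0.621 for Crebbp and 0.0232 to 0.550 for Maml1.

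Of 11 corepressor genes, 3 were higher and 2 lower (45.5% called, beside 41.0% of all tested genes). Tle1 and Tle3, Groucho-type corepressors that HES proteins recruit, went apart: Tle1 rose from 27.4 ± 0.669 to 57.4 ± 1.53 CPM (edgeR adjusted p 0.000197) and Tle3 fell from 131 ± 4.28 to 97.3 ± 2.19 CPM (0.00371), which was lost with the length offset (0.325). Hdac1, a histone deacetylase gene, rose from 95.4 ± 5.62 to 121 ± 5.97 CPM, with an adjusted p of 0.0751 and 0.0903 without IR-813 replicate 1 or 2. Over the 14 alternatives it spanned 8.57e-05 to 0.325 for Tle3 and 0.00341 to 0.0903 for Hdac1.

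Of 10 tested inhibitors and turnover genes, 1 was higher and 2 lower (30% called, beside 41.0% of all tested genes). Dtx3l, an E3 ubiquitin ligase gene of the Deltex family, rose from 18.5 ± 2.36 to 36.1 ± 11.1 CPM, Numbl, a Numb-like adaptor gene, fell from 69.7 ± 7.94 to 54.0 ± 2.86 CPM, and Cul3, a ubiquitin ligase scaffold gene, fell from 197 ± 4.74 to 159 ± 11.2 CPM. The adjusted p was 0.0679 and 0.0627 for Dtx3l, 0.129 and 0.135 for Numbl and 0.0857 and 0.0870 for Cul3 without IR-813 replicate 1 or 2. It was 0.0512 for Cul3 without IR-813 replicate 3, and 0.101 and 0.0786 for Numbl without PSNPs replicate 1 or 2. With the length offset the log2 fold change of Cul3 was −0.08, against −0.31, with an adjusted p of 0.362. The 14 alternatives spanned 0.000245 to 0.0679 for Dtx3l, 0.00886 to 0.135 for Numbl and 0.00239 to 0.362 for Cul3. Nrarp, a feedback inhibitor that is itself a direct Notch target, stood at 21.3 ± 0.932 and 20.9 ± 2.52 CPM (log2 fold change −0.03 ± 0.12, adjusted p 0.857) and was named after its value was seen.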

How the data were processed

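The authors deposited raw read counts by gene symbol for the 6 libraries in 1 table, and 1 file per library of log2 values, whose scale is not named. Per the submitters' processing notes, bcl2fastq and the build mRatBN7.2 were used. The aligner, counter, annotation and strand setting were not given in the sources used here, so reads of overlapping or antisense genes cannot be told apart. Groups and replicate numbers came from the sample titles.

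Counts passing filterByExpr were fitted in edgeR 4.0.16 (R 4.3.3), after TMM scaling, with glmQLFit and glmQLFTest and treatment as the term, with Benjamini-Hochberg adjustment over 11679 genes and a threshold of 0.05. The common biological coefficient of variation was 0.159. CPM values use TMM-scaled library sizes, and a mean ± SD is over 3 libraries. A standard error is the size of a log2 fold change divided by the square root of F. The fit was tested on simulated data.

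The length proxy of a gene is its count over the unlogged deposited log2 value after removing a pseudocount of 1, with a factor per library. It was available for 99.8% of tested genes, and is not a measured transcript length. The length offset is a lowess trend of each library on this proxy, so it also takes up a length trend that differs between the treatments.

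The members and lists were chosen with earlier results of these data known. Named were the 9 measured members and, of each pathway list, the 3 genes with the smallest p. Alternatives were other size factors (RLE, library size only), filters, DESeq2 1.42.0, limma 3.58.1 on the deposited log2 values, a replicate block, the length offset and leaving out each library. Listed genes missing from the count table were not analysed here, and 1 further pathway list is not reported here. Promoter sequences are RefSeq's, of build GRCr8.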

Additional observations from a re-analysis of the deposited data

How the results depend on the processing

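The calls of Dll3 and Jag1 held under all 14 alternatives, that of Hes5 under the 13 that kept it, and Dll1 stayed uncalled in all 14. The stricter filter removed Hes5, so it gave no value for it. The log2 fold change of Notch1 was −0.0023 with all libraries, and 0.0014 with RLE size factors, 0.0053 with no filter, 0.0014 with DESeq2 and 0.39 with the length offset. Notch2 was at 0.12 with the length offset, where Hey1 was at 0.19 and uncalled. Notch3 was uncalled at 0.63 with library size only. Leaving out 1 library at a time gave log2 fold changes from −0.14 to 0.20 for Notch1, 0.55 to 0.92 for Notch3, −0.85 to −0.56 for Hes1 and 0.37 to 0.48 for Hey1. Members called higher then ranged from 1 to 4, and members called lower from 2 to 3. Pathway genes called higher ranged from 4 to 17 and lower from 6 to 17, with 7 lower under the length offset. Over all tested genes 1339 to 3591 were higher and 1473 to 3478 lower, where 2439 and 2351 were called with all libraries. Fewer libraries enter those fits, and the lowest counts came without IR-813 replicate 2 and the highest without PSNPs replicate 3.

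The replicate numbers are shared by the groups, but the labels do not say that a number marks a shared culture. Deviations from the group means of same-numbered libraries correlated at −0.0058, 0.014 and 0.12. IR-813 replicate 1 correlated best with PSNPs replicate 2 (0.18), while the replicate 3 libraries correlated best with each other. With 3 libraries per group, these values cannot settle whether the numbers mark shared cultures. With the replicate block 2035 genes were higher and 2124 lower, and 1 member was higher and 3 lower. In that fit Notch3 was at 0.68 and Hey1 at 0.43 on the log2 scale, with edgeR adjusted p of 0.0746 and 0.0520, and the other members' calls were as without it. Of the pathway genes named, Numbl, Poglut1 and Hey2 had adjusted p of 0.0776, 0.0786 and 0.107 with the block. The cause of the changes under other scalings and offsets was not tested. Depth limits Hes5 most, at 1 to 5 counts per PSNPs library.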
